A study of Mus musculus with 36 samples.

Results

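The clustered histone genes of mouse CD4+ T cells were followed across naive cells and cells recovered after grafting. Members were taken by symbol, as every gene named H1f, H2ac, H2bc, H3c or H4c plus a number, which gave 70 of the 56748 genes in the deposited table. They comprise 11 linker histone (H1) genes, 18 H2A genes, 17 H2B genes, 12 H3 genes and 12 H4 genes. Variant histones with other symbols, such as H2az1 and H3f3b, are outside the rule and served for comparison.

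Core histones form the octamer around which DNA is wound, and linker histones bind where DNA enters and leaves it. Most core histone genes and several H1 genes are replication-dependent. They lie in clusters, are transcribed while DNA is copied, and give mRNAs that end in a conserved stem-loop, bound by SLBP, in place of a poly(A) tail. Replication-independent genes such as H1f0, a linker histone known from quiescent and differentiated cells, give ordinary polyadenylated mRNAs. Heterochromatin protein 1 (HP1), the factor removed in the mutant cells, binds histone H3 methylated at lysine in its tail.

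RNA-seq was performed on 12 groups of 3 libraries, from a line lacking HP1a and a line lacking HP1g, each with wild-type (WT) littermates. HP1a KO donors carried a deletion made from a floxed allele with CMV-cre and therefore lacked the gene in all tissues, with Hp1a+/+ littermates as WT. HP1g KO donors were Hp1g flox/flox with Cd4-cre, so that deletion was limited to T lineage cells, and the WT donors were flox/flox without Cre. All donors were male, 6 to 12 weeks old, on a mixed 129/Sv and C57BL/6 background. Naive cells were splenic CD4+ T cells isolated magnetically, whereas Tconv were donor-derived Vβ6+ CD4+ T cells sorted 3 weeks after transfer with mixed B6 and B6D2F1 bone marrow into irradiated B6 hosts, and TconvTreg were such cells from hosts that also received ex vivo expanded WT Treg. Naive and grafted cells thus differ in isolation and in the sort as well as in their history. The labels do not state whether replicates came from separate mice, so p-values measure the spread between libraries. Replicate 3 of TconvTreg HP1g KO was left out, which leaves 35 libraries and only 2 in that group.

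Total counts ranged from 37029477 to 63042165 per library, with a median of 46844629, and the members took 0.0145% to 0.0506% of them. Cbx5, which encodes HP1a, was lower in every HP1a KO library than in every WT library of the same condition, and Cbx3, which encodes HP1g, likewise in the HP1g line. Group means of the summed CD4+ T cell markers (Cd3d, Cd3e, Cd3g, Cd4, Trac, Lck) were 5710 to 8310 CPM, that is counts scaled to the library total. Markers of other cells also varied: the summed erythroid markers had group means from 2.64 CPM in Tconv HP1a WT to 3110 CPM in TconvTreg HP1g KO, and the summed myeloid markers from 3.23 CPM in naive HP1a WT to 501 CPM in TconvTreg HP1a KO. In bulk libraries, fewer cells of a type and less RNA per cell cannot be told apart.

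Of the 70 members, 69 were located in GENCODE M39 on GRCm39, the genome assembly used for the counts. The study counted with an Ensembl annotation of that assembly, so transcript lengths and overlaps given here may differ from those used in the counting. Chromosome 13 held 54 of them, 23 within chr13:21899933-22227846 and 31 within chr13:23715220-24118834, and 10 more lay within chr3:96127181-96177448. A stem-loop, searched as a 6-base stem with at most 1 G-T pair, opening with GG and closing with CC, around a 4-base loop that starts with T, was found within 150 bases of the stop codon in 59 of 69 members (85.5%) and in 0.524% of 21770 protein-coding genes. The 10 members without one were H1f0, H1f10, H1f7, H1f8, H1f9, H2ac22, H2bc21, H2bc22, H2bc23 and H2bc24. The 16-base core had 8 versions, of which 1 was present in 36 members. The windows below show the range of stem-loops and of the bases before them, for the members with long A runs, the abundant H2ac19 and H1f2, and H3 and H4 genes, with the stem-loop in capitals. H2ac24 and H2ac23 have the same letters. They lie on GRCm39 at chr13:22017197-22017226 (H2ac24, minus strand), chr13:21995056-21995085 (H2ac23, plus), chr13:23754840-23754869 (H2ac8, minus), chr3:96147098-96147127 (H2ac19, minus), chr13:23923483-23923512 (H1f2, plus), chr13:23746075-23746104 (H3c6, minus), chr13:23765921-23765950 (H4c4, plus) and chr3:96170253-96170282 (H4c14, minus).
H2ac24: aaaaaaaaaaaaGGCTCTTTTCAGAGCCat
H2ac23: aaaaaaaaaaaaGGCTCTTTTCAGAGCCat
H2ac8: aaaaaaaacaaaGGCTCTTTTCAGAGCCat
H2ac19: agctcctaaaaaGGCTCTTTTCAGAGCCac
H1f2: aacaatccaaaaGGCTCTTTTCAGAGCCac
H3c6: gtaaaccaaaacGGCTCTTTTAAGAGCCac
H4c4: ccaaaaaccaaaGGCCCTTTTCAGGGCCac
H4c14: cccatccctaacGGCCCTTTTTAGGGCCaa
H2ac24 and H2ac23 carried an unbroken run of 12 A before the stem-loop, and H2ac8 a run of 8. No other located member had 8 or more A in a row in the 30 bases before its stem-loop. The library kit primes on poly(A), and any part of such runs in the levels was not tested.

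The members were unequally expressed (plot of level per transcript length). H1f0, H2ac24 and H1f2 had means over the 12 groups of 96.8, 77.0 and 69.9 CPM and together held 73.1% of the summed member level. H2ac19 followed with 14.7 CPM and H2ac23 with 8.83 CPM. Only 24 members reached a mean of 1 CPM, and H1f7, H2bc1 and H3c14 were listed at 0 in every library. A count of 3 corresponds to 0.0476 to 0.081 CPM depending on the library, and 63 members reached 3 counts in at least 3 libraries. Per kilobase of annotated transcript, H2ac24 was first with 160 CPM per kb, ahead of H1f0 with 47.1, H1f2 with 44.8 and H2ac19 with 27.8 CPM per kb. Among the other classes, the highest was H2bc4 with 4.60 CPM per kb for H2B, H3c6 with 2.27 for H3 and H4c4 with 5.90 for H4. The second genes of those classes by CPM were H2bc21, H3c7 and H4c14. The polyadenylated linker histone gene H1f10 had only 0.087 CPM. The 42 stem-loop members annotated for at most 200 bases beyond the stem-loop had a median of 0.534 CPM per kb and the other 27 of 0.650, and 10 of the 42 and 14 of the 27 reached 1 CPM.

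**Figure D1:**
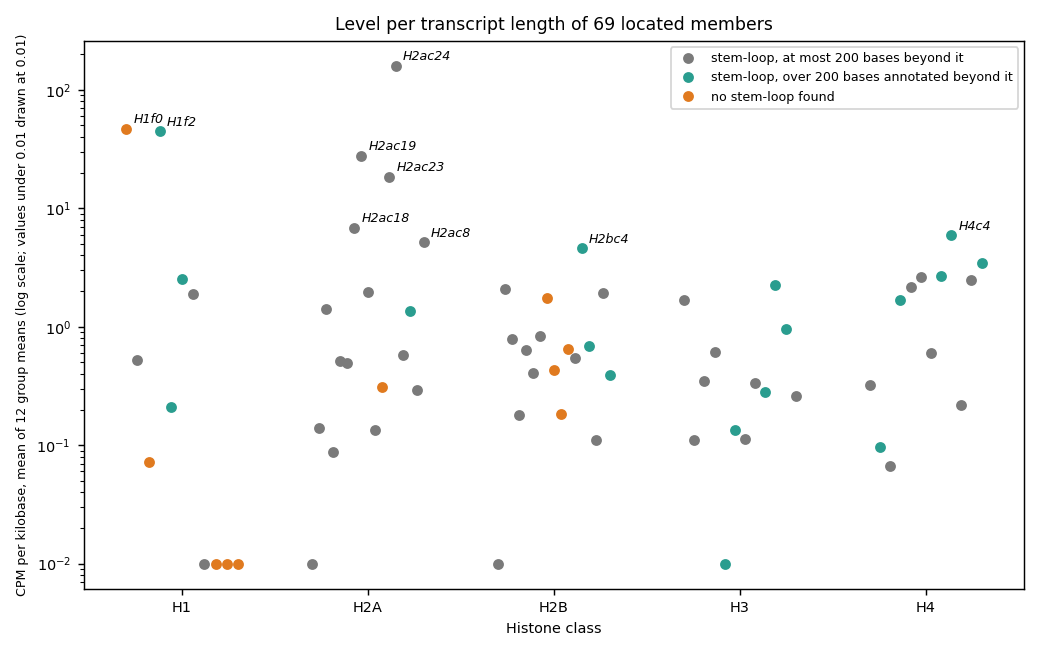
Mean CPM per kilobase of annotated transcript (vertical, log scale) of the 69 located members by histone class, 1 point per gene, coloured by the annotated transcript end. H2ac24 lies at 160 CPM per kb, while no H2B, H3 or H4 gene exceeds 5.90.

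The pair formed by H2ac24 and H2bc24 shows how uneven the readout was. The genes lie head to head on chromosome 13, H2ac24 at chr13:22017196-22017677 on the minus strand and H2bc24 at chr13:22017911-22021700 on the plus strand. The 233 bases between their starts, chr13:22017678-22017910, are given as read toward H2ac24, with CCAAT and its reverse complement ATTGG in capitals.
H2ac24 and H2bc24: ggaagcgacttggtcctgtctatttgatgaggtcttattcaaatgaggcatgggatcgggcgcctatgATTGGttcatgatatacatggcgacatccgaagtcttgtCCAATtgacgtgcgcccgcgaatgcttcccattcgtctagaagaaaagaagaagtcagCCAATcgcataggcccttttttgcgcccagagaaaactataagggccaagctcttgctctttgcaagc
CCAAT, on either strand, was present in the 300-base promoter window of 53 of 69 members (76.8%) and in 39.8% of all protein-coding genes, TATAAA in 34 members and 13.7%, and ATTTGCAT, the octamer motif, in 12 members and 1.68%. Across this shared promoter, H2ac24 had 160 CPM per kb and H2bc24 0.650. H2ac24 ends 3 bases after its stem-loop in the annotation, whereas H2bc24 is annotated as a spliced transcript without a stem-loop. H2ac23 shares 93.8% of its 31-base words with H2ac24, H2bc24 shares 99.8% with H2bc23, and H2ac19 shares all of them with H2ac18. Their reads could be split between copies by the counting, and only 26.5% of the members' values were whole numbers, so levels within such a pair are uncertain. H2ac24 also overlaps Gm54452, from which unstranded reads cannot be told apart.

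The first comparison asked which histone transcripts differed between Tconv grafted without Treg and naive cells. A gene was called where it changed by more than 1 on the log2 scale and had an adjusted p under 0.05 (Benjamini-Hochberg over all genes) in the quasi-likelihood test of edgeR. In HP1a WT, 13 of 39 members tested were called, 12 higher and 1 lower in Tconv. Among all genes 23.1% were called there, 12.9% higher and 10.2% lower. In HP1a KO 12 of 36 members were called, 11 higher and 1 lower, against 19.7% of all genes (12.4% higher, 7.24% lower). The HP1g line gave 11 of 37 members in WT, 9 higher and 2 lower, against 23.5% of all genes (15.0% higher, 8.55% lower). It gave 12 of 37 in KO, 9 higher and 3 lower, against 23.1% (15.7% higher, 7.30% lower). A low member passes the count filter only where it is high, so these counts describe the members tested and not the 70. The median log2 fold change of the members tested was 0.70, 0.82, 0.25 and 0.45 in that order, beside -0.04, -0.01, -0.03 and 0.02 for all genes.

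Of the 20 members called at least once, 8 were called in all 4 comparisons. H1f0, H1f5, H2ac8, H2ac23, H2ac24, H2bc8 and H2bc11 rose in each, and H2bc21 fell in each (plot of fold changes). By class, H4c4 in HP1g KO was the only H4 call among 7 or 8 H4 genes tested in each comparison, and H3c4 and H3c1 were the only H3 genes called among 5 tested in each. Differences between classes were not tested. With 1 library left out, H1f0 and H1f5 kept their calls in all 4 comparisons. In HP1a WT and KO the other risers also did, except H2bc11, lost in 2 of 6 fits in WT. In HP1g WT the call was lost in 4 of 6 fits for H2ac23, H2ac24 and H2bc11, 3 for H2ac8 and 2 for H2bc8. In HP1g KO it was lost in 5 of 6 for H2ac24, H2bc8 and H2bc11 and in 2 for H2ac8. H2bc21 lost its call in 3, 1, 0 and 3 of 6 fits in HP1a WT, HP1a KO, HP1g WT and HP1g KO, with adjusted p up to 0.0567.

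**Figure D2:**
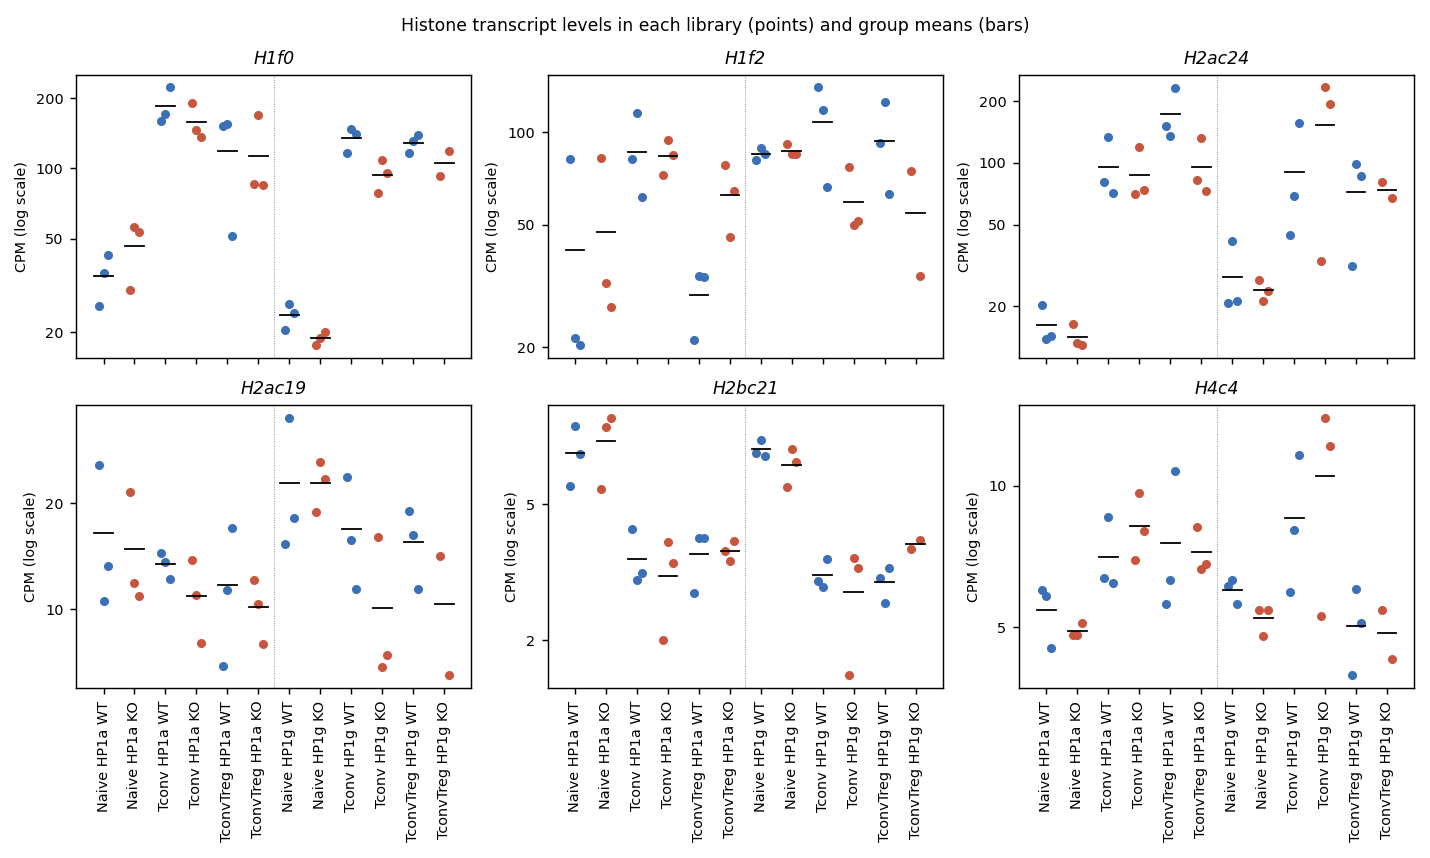
CPM (log scale) of 6 members in each of the 35 libraries, grouped by condition, line and genotype. Points are libraries, WT in blue and KO in red, and bars are group means. H1f0 and H2ac24 sit higher in most grafted libraries than in naive ones, and H2bc21 lower.

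H1f0, at chr15:78912650-78914704, was 25.8, 35.6 and 42.9 CPM in naive HP1a WT and 160, 171 and 222 CPM in Tconv HP1a WT. In the HP1g line it was 20.5, 26.4 and 24 CPM in naive WT and 116, 148 and 140 CPM in Tconv WT. Naive and Tconv libraries did not overlap in either line or genotype. The log2 fold changes were 2.42 ± 0.20 in HP1a WT (standard error, n = 3 against 3, edgeR adjusted p = 4.5e-05), 1.78 ± 0.25 in HP1a KO (0.0016), 2.51 ± 0.18 in HP1g WT (4.8e-05) and 2.35 ± 0.14 in HP1g KO (6e-06). H1f0 overlaps Gm49544, and it is the one strong riser here that is known as a replication-independent gene.

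H2ac24 was 20.4, 13.9 and 14.4 CPM in naive HP1a WT and 80.9, 134 and 71.0 CPM in Tconv HP1a WT. It was 20.7, 41.8 and 21.3 CPM in naive HP1g WT and 44.8, 68.7 and 157 CPM in Tconv HP1g WT. The Tconv libraries of the HP1g line were widely spread, above all in KO with 33.4, 233 and 194 CPM. The log2 fold changes were 2.56 ± 0.27 in HP1a WT (edgeR adjusted p = 0.000225), 2.64 ± 0.23 in HP1a KO (0.000158), 1.69 ± 0.49 in HP1g WT (0.0322) and 2.7 ± 0.71 in HP1g KO (0.029). In the HP1a line the call held when any library was left out, whereas it was lost in HP1g WT without replicate 2 or 3 of Tconv or replicate 1 or 3 of naive (adjusted p up to 0.0983), and in HP1g KO without replicate 2 or 3 of Tconv or any naive replicate (up to 0.0907). Replicate 1 of Tconv HP1g KO stood apart with the lowest values. Without it 20 of 46 members tested were called in place of 12 of 37. Calls among all genes then numbered 4473 in place of 3668. The count in HP1g KO was 6 of 38 and 7 of 39 without replicate 2 or 3 of Tconv, and 6 of 48 without replicate 2 of naive. All genes gave 3391, 3461 and 3474 calls there. In HP1g WT the count was 7 of 41 and 6 of 38 without replicate 2 or 3 of Tconv. It was 6 of 41 and 6 of 42 without replicate 1 or 3 of naive. All genes gave 3196, 3313, 3665 and 3508 calls in those fits, in place of 3723.

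The other members that rose in all 4 comparisons were less abundant. H2ac23, the near copy of H2ac24, went from 1.44 to 2.94 CPM in naive HP1a WT to 5.91 to 15.3 CPM in Tconv, and its log2 fold changes spanned 1.56 to 2.72. H2ac8 went from 0.914 to 1.18 CPM to 3.78 to 5.84 CPM in the same groups, with log2 fold changes of 1.68 to 2.7. H1f5, a linker histone of dividing cells, was at most 0.210 CPM in any naive library and 0.523 to 5.20 CPM in Tconv, with log2 fold changes of 3.21 to 5.04. H2bc8 had log2 fold changes of 1.0 to 3.59 and H2bc11 of 1.69 to 3.76. H1f3 was called higher in 3 comparisons (1.25 to 1.92) and so was H3c4 (4.29 to 4.95), which had under 3 counts in most naive libraries, so that its fitted fold depends on the prior count.

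The remaining calls came in a single comparison each. In HP1a WT, H2ac4 was at most 0.0548 CPM in naive and 0.245 to 0.322 CPM in Tconv, and H2bc23 at most 0.0149 and 0.337 to 0.680 CPM. Those naive levels are at or under 3 counts, and H2bc23 is the near copy of H2bc24, which was not called (0.21, adjusted p = 0.896). H2bc9 was also called higher in HP1a WT (1.52), H2bc3 (3.75) and H3c1 (1.03) in HP1a KO, and H2ac11 (4.02) in HP1g WT. H4c4, the highest H4 gene per length, had log2 fold changes of 0.38, 0.76 and 0.51 in HP1a WT, HP1a KO and HP1g WT, and rose by 1.02 in HP1g KO (edgeR adjusted p = 0.0399), where Tconv held 5.28, 13.9 and 12.2 CPM and naive 4.79 to 5.45 CPM. The groups overlapped there through replicate 1 of Tconv, and the call was lost in 5 of 6 fits that left out 1 library (adjusted p up to 0.134). The calls of H3c1, H2bc9, H2ac11 and H2bc3 were lost in 6, 4, 3 and 1 of 6 such fits, and those of H2ac4 and H2bc23 in 0.

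H2bc21, at chr3:96128435-96131054, an H2B gene known to give polyadenylated mRNA and here without a stem-loop in the window, fell in all 4 comparisons. Its levels were 5.66, 8.52 and 7.04 CPM in naive HP1a WT and 4.24, 2.99 and 3.14 CPM in Tconv HP1a WT, with no overlap. The log2 fold changes were -1.02 ± 0.25 in HP1a WT (edgeR adjusted p = 0.0105), -1.29 ± 0.31 in HP1a KO (0.0142), -1.23 ± 0.22 in HP1g WT (0.00394) and -1.21 ± 0.32 in HP1g KO (0.0154). The near-identical H2ac18 and H2ac19 were called lower by edgeR in HP1g KO, by -1.94 and -1.15. These calls were lost in 3 and 4 of 6 fits that left out 1 library. DESeq2 called H2ac18 lower in HP1g WT as well (-1.41, adjusted p = 0.0254), and the interaction test called no difference between genotypes. H2ac6, which overlaps H2bc4, fell by 1.06 on the log2 scale in HP1g WT, with 5.37, 4.79 and 4.22 CPM in naive and 2.89, 2.12 and 1.91 CPM in Tconv, a call lost in 3 of 6 such fits.

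H1f2, at chr13:23922791-23924350, the most abundant replication-dependent linker histone gene, was not called. It was 82.1, 21.4 and 20.3 CPM in naive HP1a WT and 82.2, 32.4 and 27 CPM in naive HP1a KO, so replicate 1 of both genotypes stood apart. In naive HP1g libraries it was 81.4 to 91.3 CPM. The Tconv values were 81.7, 116 and 61.5 CPM in HP1a WT and 140, 118 and 66.4 CPM in HP1g WT, and the log2 fold changes were 1.07 ± 0.64 (edgeR adjusted p = 0.228) and 0.34 ± 0.26 (0.349). Without naive replicate 1 the HP1a WT difference was 2.06 ± 0.28 (adjusted p = 0.00195) and the HP1a KO difference 1.51 ± 0.14 (0.000354), both calls that the full data did not give. H1f2 is annotated for 840 bases beyond its stem-loop. A stretch of over 200 bases beyond the stem-loop was annotated for 17 of the 59 stem-loop members.

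**Figure D3:**
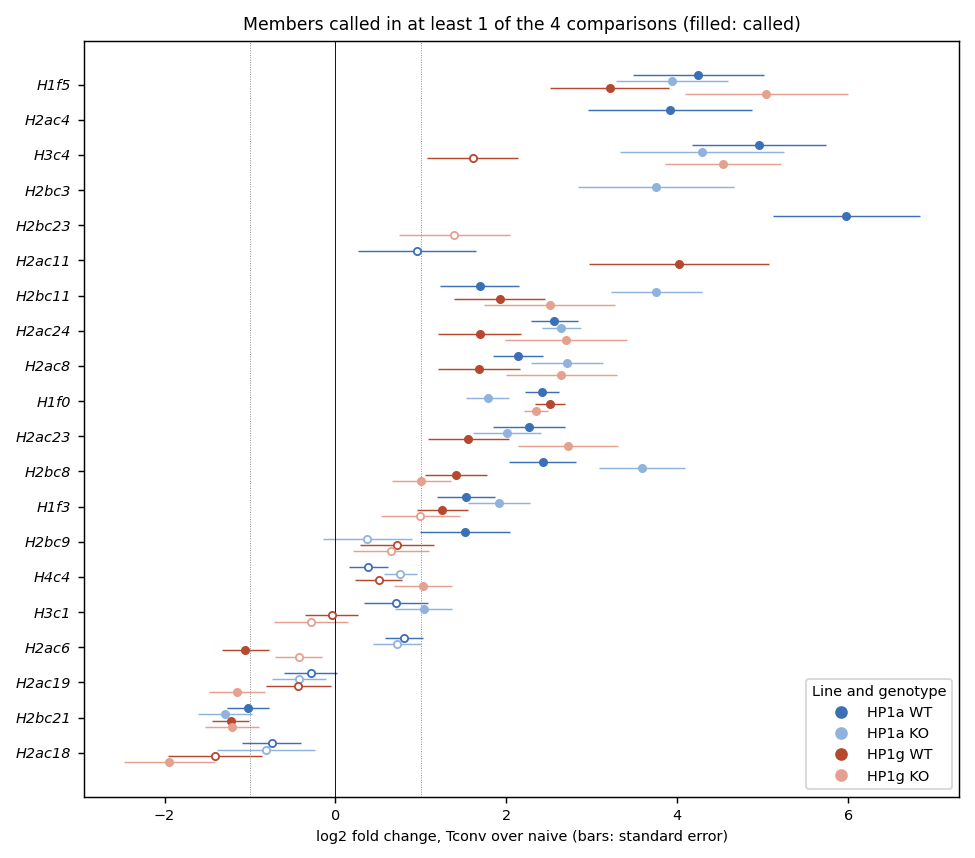
Log2 fold change of Tconv over naive cells (horizontal, bars standard error) for the 20 members called in at least 1 of the 4 comparisons, coloured by line and genotype. Filled points were called, open points were tested and not called, and missing points did not pass the count filter. H1f0 lies between 1.78 and 2.51 in every comparison, H2bc21 between -1.29 and -1.02.

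Genes of the histone supply pathway were counted from lists. None of the 4 genes of histone gene transcription (Npat, the coactivator of replication-dependent histone genes, Casp8ap2, Hinfp and Pou2f1) was called in any of the 4 comparisons, and Npat had log2 fold changes of -0.34, -0.37, 0.36 and 0.24. Of 11 genes of histone mRNA 3' end processing and decay, Zfp473, a U7-associated factor, was called higher in HP1a WT (1.13), HP1a KO (1.01) and HP1g KO (1.01), and Tut4, a terminal uridylyl transferase, lower in HP1a WT (-1.13). Slbp, the stem-loop binding protein, had log2 fold changes of 0.76, 0.69, 0.70 and 0.78, below the fold threshold. Among 12 histone chaperones, Asf1b (1.49 to 2.67) and Chaf1a (2.14 to 3.57), which deliver H3 and H4 to new DNA, were called higher in all 4 and Chaf1b in 3. Of 23 DNA replication genes, 14, 12, 14 and 14 were called higher and none lower, Mcm5 by 1.09, 1.18 and 1.17 in the first 3, with 1.64 in HP1g KO that was not called (adjusted p = 0.0816). All 10 genes of G2 and mitosis were called higher in each, Mki67 by 5.7 to 6.73. Outside the rule, the variant H2az1 was called higher in HP1a WT, HP1a KO and HP1g KO (1.11, 1.13 and 1.47). The H2A variant gene H2aw was called lower in HP1a KO and HP1g WT (-1.09 and -1.26). In HP1g KO 1 of the 11 histone genes tested outside the rule was called lower as well.

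Markers of other cells moved as well, in directions that differed between lines. All 5 erythroid markers tested were called lower in Tconv than in naive cells in HP1a WT, none of 6 was called in HP1a KO, and 6 of 6 and 5 of 6 were called higher in HP1g WT and KO. Myeloid markers were called higher in 0 of 2, 3 of 7, 5 of 5 and 6 of 6 tested. In Tconv HP1a WT, Ltf, Chil3 and Elane were at 0 in all 3 libraries. B lineage markers were called only lower, 3 of 4, 2 of 4, 2 of 4 and 3 of 5. The summed erythroid markers were 37.4 to 97.8 CPM in naive and 1.8 to 3.44 CPM in Tconv of HP1a WT, and the summed myeloid markers 2.08 to 4.49 and 3.29 to 3.65 CPM. The other RNAs without a poly(A) tail had a summed level of 18.9 to 25.6 CPM in naive and 20 to 26.4 CPM in Tconv of HP1a WT, and no member of that list tested was called there. In HP1g WT the sum was 18.6 to 38.0 CPM in naive and 10.1 to 16.7 CPM in Tconv, without overlap. The ranges overlapped in KO of both lines. In HP1g KO 1 of 4 RNAs tested was called higher, and none was called in HP1a KO or HP1g WT. The part of other cells in the differences of the histone genes was not tested in any comparison.

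Histone levels were next set against the summed level of the 23 DNA replication genes, library by library, for 5 members in grafted and in naive cells, 10 relations in all (permutation tests, two-sided, 100000 resamples). Across the 23 grafted libraries, log2 CPM of H2ac24 had a Pearson r of 0.68 (p = 0.00029, Benjamini-Hochberg 0.0029) and a Spearman rho of 0.65 (p = 0.00091, adjusted 0.008). Without the 2 libraries farthest from the median of the sum r was 0.55. Within the lines r was 0.64 in HP1a (n = 12) and 0.92 in HP1g (n = 11), and deviations from group means gave 0.86. H2ac24 was chosen with its levels known, and libraries share normalisation, so these values describe the data. Replicate numbers also pair the Tconv HP1g KO and WT libraries. The permutation takes libraries as independent and ignores their groups, so the p-values across grafted libraries may be too small. For the other 4 members the relation across grafted libraries did not pass the threshold, with r of -0.39 for H1f2 (p = 0.065), 0.29 for H2bc21 (p = 0.17) and 0.36 for H4c4 (p = 0.095), and rho of -0.05 for H1f0 (p = 0.83). Within HP1g r was 0.68 for H2bc21 and 0.63 for H4c4, against -0.03 and -0.23 within HP1a, and deviations from group means gave 0.50, 0.65 and, for H1f0, 0.42. H1f2 had negative values throughout, -0.56 within HP1a and -0.58 within HP1g.

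**Figure D4:**
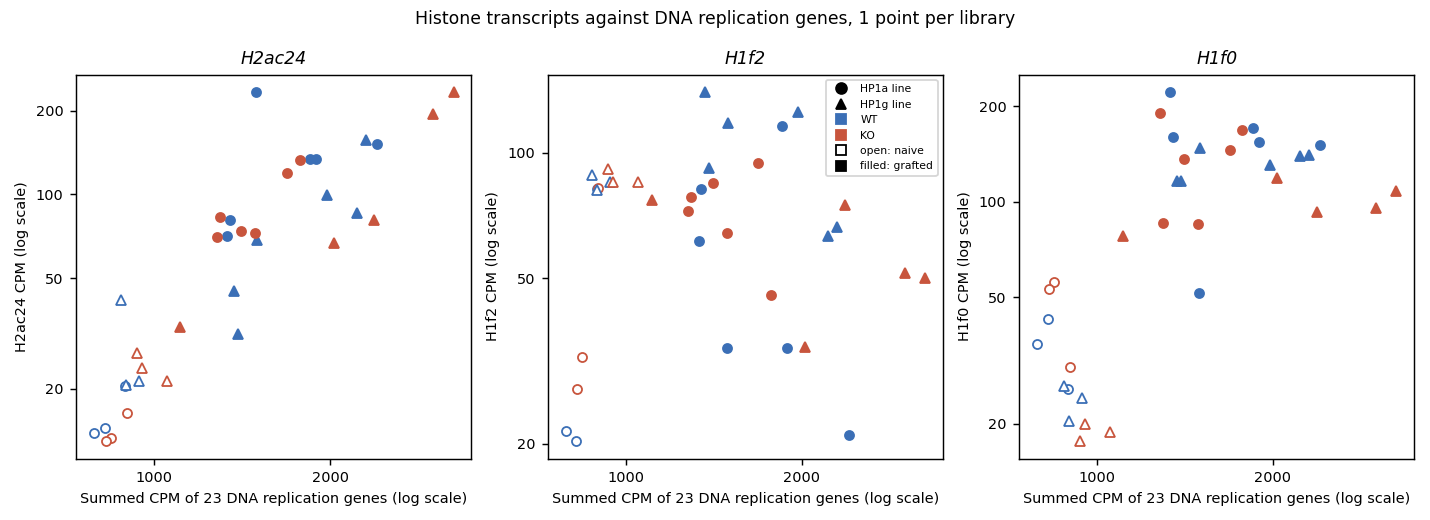
CPM of H2ac24, H1f2 and H1f0 (vertical, log scale) against the summed CPM of 23 DNA replication genes (horizontal, log scale), 1 point per library, circles for HP1a, triangles for HP1g, open for naive. H2ac24 rises with the sum across grafted libraries (r = 0.68), with replicate 3 of TconvTreg HP1a WT, at 232 CPM, above the libraries of similar sum.

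Among the 12 naive libraries H1f2 had r = 0.80 (permutation p = 0.0013, adjusted 0.0063) and rho = 0.77 (p = 0.0051, adjusted 0.017). It was 0.87 without the 2 libraries farthest from the median, 0.95 in the HP1a line (n = 6) and -0.07 in HP1g (n = 6), so it did not hold within both lines. Replicate numbers pair the naive HP1a libraries, and replicate 1 of both genotypes alone had high H1f2, so the permutation, which takes libraries as independent, may give too small a p. Without both of these libraries, a choice made after seeing the data, r was 0.82 over 10 libraries, in which H1f2 was high in every HP1g and low in every HP1a library. H1f0 went the other way with r = -0.78 (permutation p = 0.0024, adjusted 0.008) and rho = -0.83 (p = 0.0016, adjusted 0.008), with r = -0.88 without the 2 farthest libraries and -0.54 within either line. Without replicate 1 of both naive HP1a genotypes it was again -0.78 over 10 libraries, but 0.93 within HP1a (n = 4). Its negative sign within HP1a thus rests on those 2 libraries, and the limit from pairing holds for its permutation p as well. H2ac24 in naive cells had r = 0.51 (permutation p = 0.091), 0.74 in HP1a and -0.53 in HP1g and therefore no common sign. H2bc21 had r = -0.46 (permutation p = 0.13), with -0.84 in HP1a and -0.08 in HP1g. H4c4 had r = -0.04 (permutation p = 0.9), with -0.01 in HP1a and -0.98 in HP1g. Over all 35 libraries the members nearest in pattern to the summed member level were H2ac24, H2ac23 and H2ac8 (Pearson r of log2 CPM 0.94, 0.90 and 0.90), of which H2ac24 makes up 23.1% of the sum. Each is itself part of that sum, and reads could be split between the near copies H2ac23 and H2ac24, so these values are not independent.

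The presence of Treg was the second comparison. In HP1a WT, 2 of 48 members were called between TconvTreg and Tconv, against 5.96% of all genes. In HP1a KO 0 of 44, in HP1g WT 0 of 42 and in HP1g KO 0 of 50 members were called by edgeR. All genes were called there at 0.440%, 0.0126% and 0%. The unadjusted edgeR p was under 0.05 for 12, 0, 2 and 2 members in the 4 comparisons. These were 25.0%, 0%, 4.76% and 4.0% of those tested, beside 22.5%, 15.8%, 6.89% and 7.62% of all genes. DESeq2 called 6 of 64, 0 of 64, 0 of 65 and 1 of 64 members in the 4 comparisons, against 6.19% of all genes in HP1a WT and 0.930% in HP1g KO.

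Both calls were in HP1a WT and went opposite ways. H1f2 was 81.7, 116 and 61.5 CPM in Tconv and 21, 34 and 33.9 CPM in TconvTreg, with no overlap, and it fell by 1.52 ± 0.29 on the log2 scale (edgeR adjusted p = 0.0213). H2bc14 was 0.109, 0.232 and 0.0806 CPM in Tconv and 0.763, 1.28 and 2.29 CPM in TconvTreg, and rose by 3.34 ± 0.72 (adjusted p = 0.0329). H1f2 lost its call when replicate 1 or 2 of Tconv or replicate 1 of TconvTreg was left out (adjusted p up to 0.0834), and H2bc14 without any of the 3 Tconv libraries or replicate 2 of TconvTreg (up to 0.172), without change of sign. In the other groups H1f2 had log2 differences of -0.41, -0.21 and -0.11, and its interaction with genotype in the HP1a line was 1.12 ± 0.38 (edgeR adjusted p = 0.312).

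Replicate 3 of TconvTreg HP1a WT stood apart from its group. It had 51.5 CPM of H1f0 beside 151 and 155 CPM, 232 CPM of H2ac24 beside 151 and 134 CPM, and 61.1 CPM of other RNAs without a poly(A) tail beside 30.9 and 31.6 CPM. Without it the count of members called was again 2. The summed erythroid markers were 1.8 to 3.44 CPM in Tconv HP1a WT and 2.66 to 50 CPM in TconvTreg HP1a WT, the myeloid markers 3.29 to 3.65 and 7.47 to 46.8 CPM, and their part in these differences was not tested. In that comparison H2ac24 itself had a log2 difference of 0.88 ± 0.31 (edgeR adjusted p = 0.145), and the median over the 48 members was 0.63 beside 0.03 for all genes. A low member passes the count filter only where it is high, which can raise that median. It includes replicate 3 and near copies that share reads, so it describes the members tested and not the 70. Summed over the 70 members, the level was 454 ± 61.0 CPM in Tconv HP1a WT and 445 ± 40.8 in TconvTreg HP1a WT (SD, n = 3 each). The H1 sum was 279 ± 26.1 and 163 ± 52.1 CPM and the H2A sum 132 ± 40.3 and 229 ± 73.9 CPM in these groups. The near-equal totals thus held class means that differed in opposite directions. These class sums were not tested, and they include H1f0, H2ac24 and replicate 3.

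Loss of HP1 was compared in each condition. No member was called by edgeR in any of the 6 comparisons. Between 31 and 48 members were tested, and all genes were called at 0% in naive, 0.103% in Tconv and 0.123% in TconvTreg cells of the HP1a line, and at 0.00669%, 0.0437% and 0% in the HP1g line. At an unadjusted p under 0.05 there were 1, 1 and 6 members in the HP1a line and 1, 3 and 1 in the HP1g line. In the HP1a line these were 3.23%, 2.38% and 12.5% of the members tested, beside 1.87%, 8.53% and 12.1% of all genes. In the HP1g line they were 3.03%, 6.67% and 2.08%, beside 5.78%, 8.42% and 11.8%. DESeq2 called 1 of 65 members, H1f2, in TconvTreg of the HP1a line, where it called 2.49% of all genes. In TconvTreg of the HP1g line it called 1 of 64, H2bc18, beside 2.19% of all genes. It called no member in the other 4 comparisons. Leaving out any single library gave no call either.

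**Figure D5:**
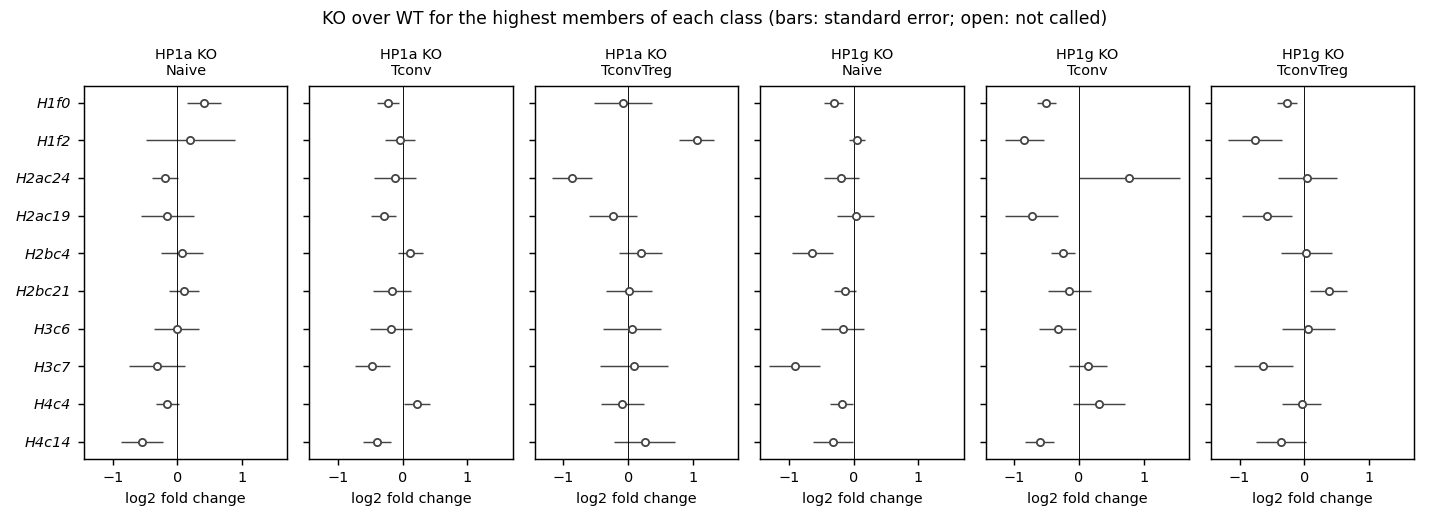
Log2 fold change of KO over WT (horizontal, bars standard error) for the 2 most abundant members of each class in the 6 comparisons, 1 panel each. All points are open because no member was called, and H1f2 in TconvTreg of the HP1a line lies highest at 1.06.

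The 6 members that passed the unadjusted threshold in TconvTreg of the HP1a line, H1f2, H1f5, H2ac8, H2ac23, H2ac24 and H3c1, were 12.5% of those tested, beside 12.1% of all genes. H1f2 was 78.2, 45.5 and 64.2 CPM in KO and 21, 34 and 33.9 CPM in WT, with a log2 difference of 1.06 ± 0.27 (edgeR adjusted p = 0.182), and the groups did not overlap. H2ac24 was 82.6, 133 and 72.8 CPM in KO and 151, 134 and 232 CPM in WT (-0.87 ± 0.30, adjusted p = 0.316). The summed myeloid markers were 292 to 664 CPM in those KO libraries and 7.47 to 46.8 CPM in WT, the erythroid markers 112 to 703 and 2.66 to 50 CPM, and their part in these differences was not tested.

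In Tconv of the HP1g line, H1f0 was 78.2, 108 and 95.7 CPM in KO and 116, 148 and 140 CPM in WT. No KO library reached the lowest WT library, but the difference of -0.51 ± 0.15 was not called (edgeR adjusted p = 0.371). Replicate numbers pair these libraries, and with the replicate block the difference was -0.51 ± 0.09 (edgeR adjusted p = 0.0718), again not called. The erythroid markers summed to 159 to 3330 CPM in KO and 75.7 to 4960 CPM in WT. H2ac24 was 33.4, 233 and 194 CPM in KO and 44.8, 68.7 and 157 CPM in WT, a difference of 0.78 ± 0.78 (adjusted p = 0.86), and replicate 1 was lowest in both genotypes. The summed DNA replication genes had the same order within each genotype, 1107, 3255 and 3003 CPM in KO and 1368, 1499 and 2304 CPM in WT. H2bc18, named here because DESeq2 called it, was 0.266, 0.534 and 0.635 CPM in TconvTreg HP1g WT and listed at 0 in both KO libraries, where 3 counts are 0.0515 and 0.0486 CPM. It was also at 0 in 1 Tconv HP1g WT library, and edgeR gave it an adjusted p of 0.188.

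The difference between genotypes in the response was tested as an interaction. No member was called by edgeR for genotype by Treg in HP1a (51 tested, 0.139% of all genes called) or HP1g (53 tested, 0%), or for genotype by activation, the Tconv against naive difference, in HP1a (46 tested, 0.00587%) or HP1g (46 tested, 0.0235%). Unadjusted p was under 0.05 for 5, 2, 3 and 3 members. These were 9.8%, 3.77%, 6.52% and 6.52% of those tested, beside 9.74%, 3.74%, 4.89% and 7.89% of all genes. DESeq2 called 1 of 65 members, H3c1, for genotype by Treg in HP1a, where it called 1.12% of all genes, and none in the others. The response of H1f0 to grafting had an interaction of -0.65 ± 0.35 in the HP1a line (edgeR adjusted p = 1) and -0.14 ± 0.22 in HP1g (0.82), and that of H2ac24 0.07 ± 0.37 (1) and 1.04 ± 0.88 (0.672).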

How the data were processed

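The authors aligned paired-end reads of poly(A)-primed SMART-Seq libraries with STAR to GRCm39 and quantified genes with Salmon. The deposited table holds estimated counts per gene, which need not be whole and were rounded here. The counting was not stranded. A test made for counts was kept for the rounded values.

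Tests were run with edgeR 4.0.16 in R 4.3.3 (TMM, filterByExpr, robust quasi-likelihood, Benjamini-Hochberg over all genes), on the libraries of the groups compared, with the study's thresholds. DESeq2 1.42.0 was an alternative. CPM used TMM over the 35 libraries. Scripts were tested on simulated data. Members and lists were chosen with earlier results of these data known. Named genes were the 2 highest members of each class, H1f0, H1f10, up to 3 highest and 3 lowest called members per comparison, pathway references, and others said to be chosen by value.

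Replicate numbers were taken to pair the samples where at least 3 pairs existed and every correlation of deviations was above 0.1. This held in naive HP1a KO against WT (0.287 to 0.654) and Tconv HP1g KO against WT (0.112 to 0.431). TconvTreg HP1g KO against WT had 0.197 to 0.38 in only 2 pairs, so pairing there is possible but was not counted. Positions and sequences came from GENCODE M39 on GRCm39. H2ac14 was not located. Total counts of 37029477 to 63042165 set the precision, which covers counting error only.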

Additional observations from a re-analysis of the deposited data

Results flagged for a closer look

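H2ac6 moved in opposite directions in the 2 lines. Every Tconv HP1a WT library (4.93, 5.06 and 4.43 CPM) was above every naive HP1a WT library (3.05, 2.74 and 2.52 CPM), a log2 difference of 0.80 that was not called, while every Tconv HP1g WT library was below every naive one, a called difference of -1.06. The difference between lines was not tested. H2ac6 shares exon sequence with H2bc4.

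In the library left out of the comparisons, replicate 3 of TconvTreg HP1g KO, H2ac6 was 6.28 CPM and H2bc8 1.89 CPM, above each TconvTreg HP1g WT library (at most 2.37 and 1.36 CPM). The left-out library was scaled to its total without TMM and the WT libraries with TMM, so the 2 scales differ. The study excluded it for abnormal GC content, share of reads in exons and bias along transcripts, and the part of quality in these values was not tested. In the same library H1f0 was 6.17 CPM and H2ac24 0.703 CPM, and the members took 0.00739% of the counts, below the 0.0145% of the lowest library in use.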

How the results depend on the processing

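DESeq2 was run without the edgeR count filter. The number of members called with it in TconvTreg was 1 of 65 for HP1a KO against WT and 1 of 64 for HP1g KO. It was 6 of 64 for Treg in HP1a WT, 1 of 64 for Treg in HP1g KO and 1 of 65 for genotype by Treg in HP1a. For activation in HP1g WT it was 18 of 65, beside 11 of 37 with edgeR. All genes gave 4373 and 3723 calls there. Fitting all libraries of a line together gave 1 for HP1a KO against WT in TconvTreg and 4 for Treg in HP1a WT, and no filter on low counts gave 1 for HP1g KO against WT in TconvTreg. The replicate block gave 1 for Treg in HP1a WT, 12, 11, 10 and 8 for activation, and 0 in the 2 comparisons where the numbers paired the libraries by the rule above. The block moved no other count by over 1.5 times. Leaving out 1 library gave 0 to 2 for Treg in HP1a WT, 10 to 16, 10 to 18, 6 to 12 and 6 to 20 for activation in HP1a WT, HP1a KO, HP1g WT and HP1g KO, and 0 elsewhere. The count filter was rerun in each of these fits, so the members tested and the calls among all genes changed as well. The cause of these changes was not tested. The other 119 counts under alternatives that kept all libraries stayed within 1.5 times. A count of 0 beside 0 was included as staying, which is the usual case outside activation and Treg in HP1a WT. Of the named members' calls, 22 of 300 were lost under those alternatives and 80 of 300 when 1 library was left out, and none changed sign. Dropping the fold threshold, included among those alternatives, used the same fit and could not lose a call. Summed levels moved by over 1 SD only with replication-dependent candidates alone, in 9 of 24 values. Members under 1 CPM, 46 of 70, rest on few reads.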
